A study of Mus musculus with 11 samples.

Results

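The cells described here hold transcripts of genes that mark the trophectoderm (TE), the outer epithelium of the blastocyst. They were found in droplet single-cell RNA-seq of Oct4-LOF nEnd, a mouse culture derived from homozygous embryonic stem cells in which 4-hydroxytamoxifen (4OHT) induces loss of Oct4 (gene symbol Pou5f1). A cell was taken when its unique molecular identifiers (UMIs) for Ascl2, Cdx2, Krt7, Esx1 and Gata3 summed to 3 or more, with at least 2700 UMIs in all, at most 12% mitochondrial UMIs, and under 1000 CPM (counts per 1000000 UMIs) for the fibroblast collagens Col1a1, Col1a2 and Col3a1. Of the 14179 barcodes in both libraries, 12011 met the limits on depth and mitochondrial UMIs, and 155 of these met the rule. They are called TE-gene cells from here on, after the genes that chose them. The library with 4OHT (+4OHT) held 121 of them and the library without it (-4OHT) held 34.

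Naive extra-embryonic endoderm (nEnd) models the primitive endoderm, the inner cell mass lineage that forms the yolk sac. Both libraries came from the single line EPUc, sorted for the surface receptor PDGFRA and then grown on feeder cells in RACL, a medium with Activin A, CHIR99021 and LIF. Cells received 4OHT or no treatment for 48 h and RACL alone for a further 72 h, 120 h in all, and cells without DAPI stain were sorted for capture. Both libraries therefore share the inducible line, the PDGFRA sort and the feeders, and they differ by 4OHT. With 1 library per condition there are no replicates, no test of a condition was possible, and each interval given is a 95% interval of counting error only, since cells of a library are not replicates.

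The TE is the first epithelium of the embryo. Its cells are joined by tight junctions, pump fluid into the blastocoel and, after implantation, give rise to the trophoblast of the placenta. Cdx2 and Gata3 encode transcription factors that establish TE identity, Esx1 a homeobox protein and Ascl2 a basic helix-loop-helix protein of the trophoblast lineage, and Krt7 a keratin of trophoblast and other simple epithelia. In the mouse, Oct4 restrains Cdx2 in the inner cell mass, and several genes that control placental growth are imprinted, that is, expressed from a single parental copy.

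The targeted gene differed between the libraries in the labelled direction. Pou5f1 stood at 2.60 CPM over all 6525 cells with 4OHT that met the limits and at 40.1 CPM over the 5486 cells without it. In the +4OHT TE-gene cells it was 14.5 CPM, with at least 1 UMI in 27 of 121 cells, against 1.92 CPM in the endoderm cells and 19.4 CPM in the 93 cells of the same library that were neither endoderm nor held a rule gene. Without 4OHT, the TE-gene cells had 41.7 CPM and the endoderm cells 15.5 CPM. The 3488 -4OHT cells that were neither endoderm nor held a rule gene had 47.8 CPM. The libraries differ in their mix of these classes, so the values over all cells do not compare like cells. Pou5f1 UMIs were thus present in some TE-gene cells of the +4OHT library. Which part of the gene is deleted is not given in the sources used here, so these UMIs do not tell an intact copy from a deleted one.

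TE-gene cells made up 1.85% of the +4OHT cells (interval 1.54% to 2.21%) and 0.620% of the -4OHT cells (0.430% to 0.865%), so that the share with 4OHT lay above the interval of the other. The rule counts UMIs, and the cells that met it were deep. The median was 18725 UMIs in the +4OHT TE-gene cells against 12566 in all +4OHT cells, and 22404 in the -4OHT TE-gene cells against 17788 in all -4OHT cells. When every cell was thinned to 2700 UMIs, the rule found 31 +4OHT cells, 0.475% (0.323% to 0.674%), and 1 -4OHT cell, 0.0182% (0.000461% to 0.102%). The order of the libraries held at matched depth. A further 4 cells with 4OHT reached the summed count but fell outside, 2 for collagen and 2 for depth or mitochondrial UMIs, as did 1 cell without 4OHT.

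Endoderm cells, the cells of comparison, had a rule sum of 0 and at least 3000 CPM for Sparc, Col4a1 and Col4a2, basement membrane genes that primitive endoderm makes in large amounts. There were 5819 with 4OHT and 1331 without. The collagen limit was not applied to these cells. Applied to the TE-gene cells, the same threshold split the 121 cells with 4OHT into 73 below it (endoderm-low) and 48 at or above it (endoderm-high). The 73 endoderm-low cells were 35.6% (29.1% to 42.6%) of the 205 +4OHT cells below the threshold, whereas the 48 endoderm-high cells were 0.763% (0.563% to 1.01%) of the 6291 above it. Without 4OHT, 33 of 4040 cells below the threshold met the rule, 0.817% (0.563% to 1.15%), and 1 of 1432 above it. TE-gene cells were thus a large share of the few +4OHT cells that had little basement membrane RNA, and a small share of every other class.

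**Figure D1:**
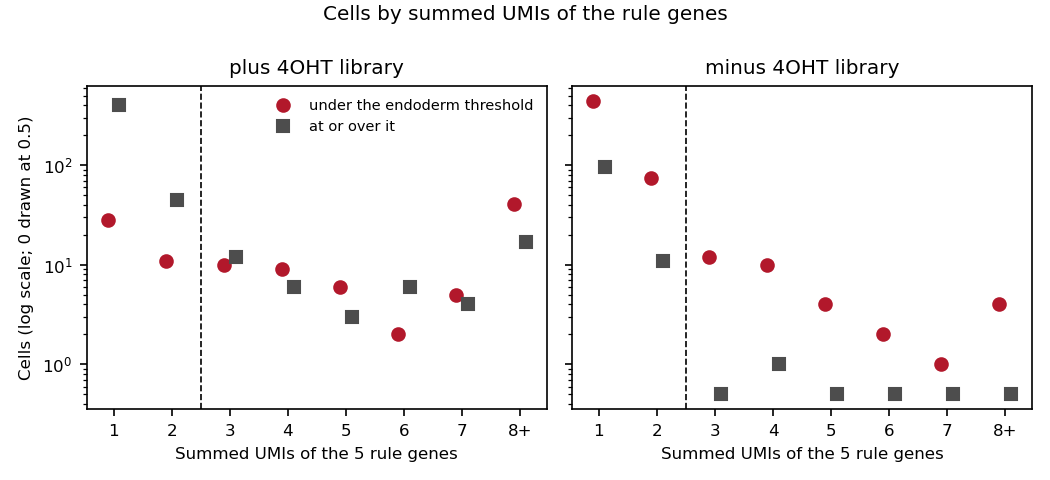
Number of cells (log scale, with 0 drawn at 0.5) at each summed UMI count of the 5 rule genes in each library, with cells below the endoderm threshold as circles and cells at or above it as squares; the dashed line marks the rule. The +4OHT library has 58 cells at a sum of 8 or more and the -4OHT library has 4.

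The rule sum fell off without a gap at the limit. With 4OHT, 429 cells had a sum of 1, 56 a sum of 2, 22 a sum of 3, and 58 a sum of 8 or more. Without 4OHT these numbers were 540, 86, 12 and 4. Just inside the limit, the 22 +4OHT cells at a sum of 3 held 120 CPM of Cldn4, a tight junction claudin, and 96.5 CPM of Cdkn1c, an imprinted cell cycle inhibitor. Just outside it, the 56 cells at a sum of 2 held 55.3 and 30.4 CPM.

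Each of the 5 rule genes was carried by many +4OHT TE-gene cells, and none by all of them. Esx1 had 430 UMIs in 79 of the 121 cells (178 CPM), Ascl2 332 UMIs in 65 cells (137 CPM), Cdx2 269 UMIs in 74 cells (111 CPM), Krt7 195 UMIs in 57 cells (80.7 CPM) and Gata3 53 UMIs in 26 cells (21.9 CPM). These values describe the choice of cells and test nothing. Among all 6291 +4OHT cells at or above the endoderm threshold, Ascl2 had a UMI in 0.493%, Gata3 in 1.18%, Krt7 in 2.13%, Esx1 in 2.59% and Cdx2 in 2.64%. The 6291 include the 48 endoderm-high TE-gene cells. These made up 19 of the 31 cells with Ascl2 and 31 of the 134 with Krt7, so the shares are no measure of free RNA.

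The genes often came together. Of the 121 cells, 27 held 1 rule gene, 43 held 2, 23 held 3, 21 held 4 and 7 held all 5. Ascl2 and Esx1 shared 51 cells, Cdx2 and Esx1 also 51, and Ascl2 and Cdx2 48. The endoderm-low cells carried more of 4 of the 5 genes than the endoderm-high cells, at 204 against 71.6 CPM for Ascl2, 171 against 52.6 for Cdx2, 269 against 88.0 for Esx1 and 37.5 against 6.58 for Gata3. Krt7 was not split this way, at 70.8 CPM in endoderm-low and 90.5 CPM in endoderm-high cells.

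Cells with more rule genes also held more of several genes that the rule did not use. In cells with 1, 2 and at least 3 rule genes, Cldn3, a second claudin, stood at 28.1, 79.5 and 125 CPM, and Cldn4 at 95.6, 174 and 202 CPM. Id2, an inhibitor of differentiation that responds to BMP signalling and is enriched in early TE, stood at 18.7, 143 and 181 CPM, and H19, an imprinted non-coding RNA, at 525, 1164 and 2320 CPM. Cdkn1c did not follow the same order, at 159, 112 and 407 CPM. All these sets share the library, and the median depth was 17939, 16015 and 21623 UMIs. They differ in endoderm class, with 10 of 27, 29 of 43 and 34 of 51 cells endoderm-low. Cldn3, Cldn4 and Id2 were each higher in endoderm-low than in endoderm-high cells. Whether the order holds within a class was not tested.

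**Figure D2:**
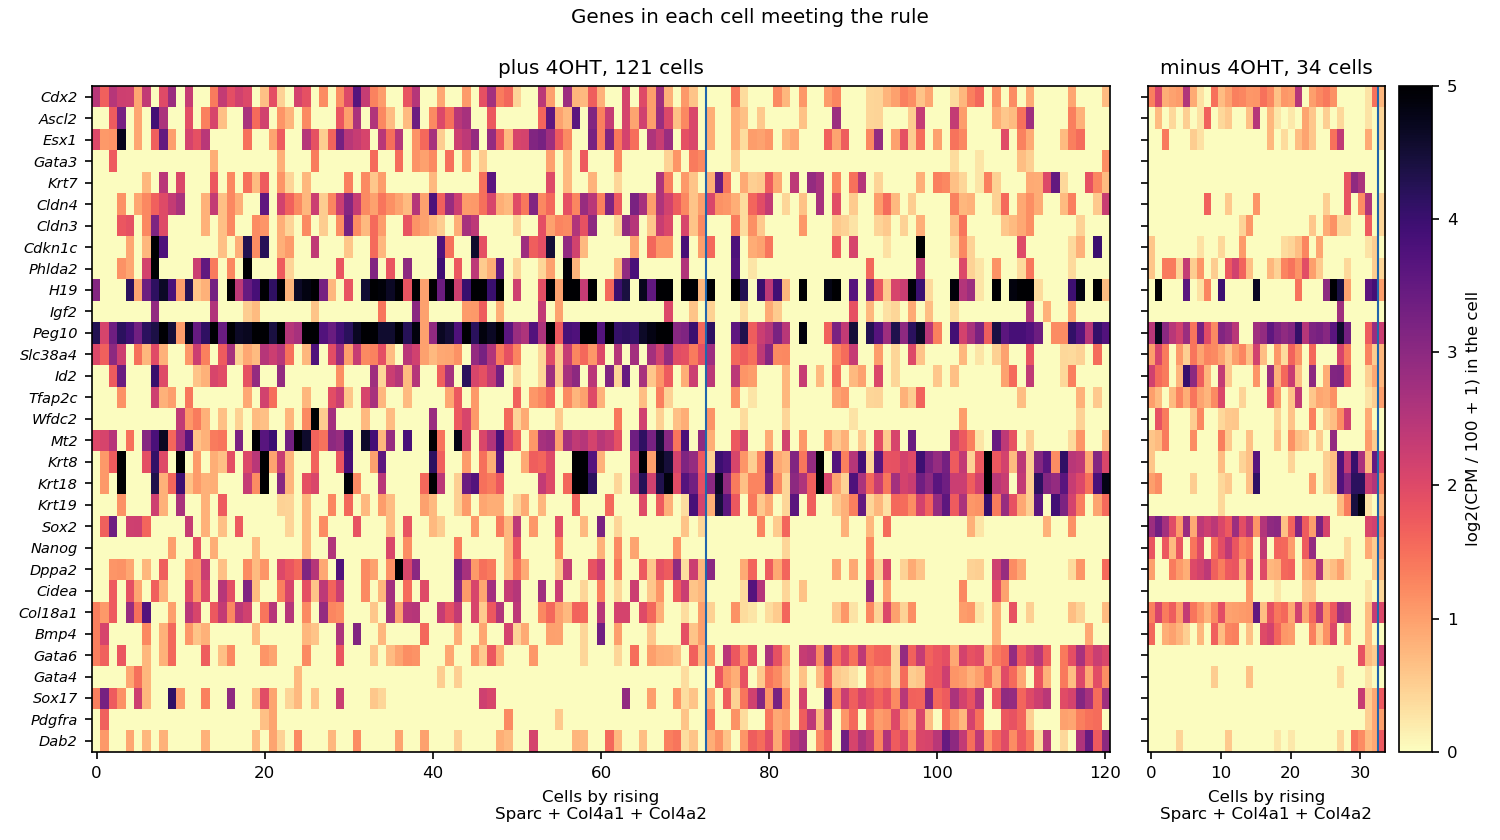
Level of 31 genes in each TE-gene cell as log2(CPM/100 + 1), with the 121 +4OHT cells on the left and the 34 -4OHT cells on the right, each ordered by rising Sparc, Col4a1 and Col4a2; the blue line marks the endoderm threshold. Of the 73 endoderm-low cells with 4OHT, Esx1 has a UMI in 53, Cdx2 in 50, Krt7 in 26 and Gata3 in 20. Of the 34 cells without 4OHT, Sox2 has a UMI in 29, Cdx2 in 28 and Nanog in 22.

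The 121 +4OHT TE-gene cells were next compared with the 5819 endoderm cells of their library, on UMIs summed over cells. Among 7187 genes of at least 20 CPM in either group, 642 (8.93%) were at least 2-fold higher and 572 (7.96%) at least 2-fold lower in the TE-gene cells, and every one of these ratios had an interval that left out 1. The median log2 ratio over all 7187 genes was 0.044. The groups were set by genes measured in the same cells, so these ratios describe the cells and are no test, and genes of the rule were left out.

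Tight junction and imprinted genes stood at the top. Cldn3 was at 88.5 against 0.186 CPM, a ratio of 476 (282 to 866), with UMIs in 64 of 121 cells. Cldn4 was at 169 against 3.78 CPM, a ratio of 44.7 (38.5 to 52.1), with UMIs in 91 cells. Claudins seal neighbouring epithelial cells. After thinning, 30.6% of TE-gene cells and 0.808% of endoderm cells had a Cldn4 UMI, at unthinned median depths of 18725 and 12297. Slc38a4, a paternally expressed amino acid transporter of the placenta, was at 178 against 0.732 CPM, a ratio of 244 (185 to 326), with UMIs in 84 cells.

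Other leading genes rested on fewer cells. Phlda2, an imprinted brake on placental growth, was at 223 against 0.942 CPM, a ratio of 237 (186 to 305), and had UMIs in 41 cells. A single cell held 29.5% of its UMIs, and without that cell the ratio was 168. Cdkn1c was at 256 against 1.64 CPM, a ratio of 156 (129 to 190), with UMIs in 48 cells, and 120 without the cell that held 24.4% of them. Wfdc2, a secreted epithelial protein, was at 101 against 0.372 CPM, a ratio of 271 (185 to 411) that fell to 89.7 without the cell holding 67.2% of its UMIs. The size of these 3 ratios therefore leaned on single cells, whereas those of Cldn4 and Slc38a4 did not, with at most 6.03% of their UMIs in a cell.

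The rest of the 15 highest ratios covered several functions. Id2 was at 133 against 2.62 CPM, a ratio of 50.8 (42.5 to 60.7). Mt2, a metallothionein that binds zinc, was at 477 against 10.2 CPM (46.6, 42.6 to 51.0), and Slc40a1, the iron exporter ferroportin, at 73.6 against 1.60 CPM (46.0, 36.5 to 58.2). Col18a1, a basement membrane collagen distinct from those of the threshold, was at 123 against 0.620 CPM (199, 147 to 274), and Rragd, a GTPase of lysosomal nutrient sensing, at 186 against 4.03 CPM (46.1, 39.9 to 53.3). Cidea, a lipid droplet protein, was at 131 against 1.02 CPM (129, 101 to 166), and Stra8, a germ cell gene that responds to retinoic acid, at 71.2 against 1.55 CPM (45.9, 36.3 to 58.3). Calcoco2, an autophagy receptor, reached a ratio of 419 (227 to 858), and Fgfbp1, a carrier of fibroblast growth factors, 46.6 (35.3 to 61.6).

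The 10 lowest ratios lay between 3.80-fold and 5.32-fold lower. Tff1, a secreted trefoil peptide, was at 30.6 against 163 CPM, 5.32-fold lower (4.24 to 6.78), and the matrix proteoglycan gene Spock1 was 5.29-fold lower (3.68 to 7.90). Aqp8, a water channel, was at 84.0 against 343 CPM, 4.08-fold lower (3.56 to 4.71), and Fzd5, a Wnt receptor, 4.09-fold lower (3.05 to 5.64). Ccdc80, Rcn3, Filip1l and Thbd were 3.86-fold to 5.14-fold lower. Gkn1 and Gkn2, which encode gastrokines, were 3.80-fold and 4.33-fold lower, and 16.3-fold and 7.73-fold lower without the single cell that held 76.9% and 44.4% of their UMIs. In the 73 endoderm-low cells alone the same 10 genes stood further below endoderm cells, with Aqp8 25.8-fold lower (15.9 to 45.1), Rcn3 56.9-fold lower on 3 UMIs (19.5 to 276), Thbd 84.5-fold lower on 2 UMIs (23.4 to 698) and no UMI of Spock1.

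**Figure D3:**
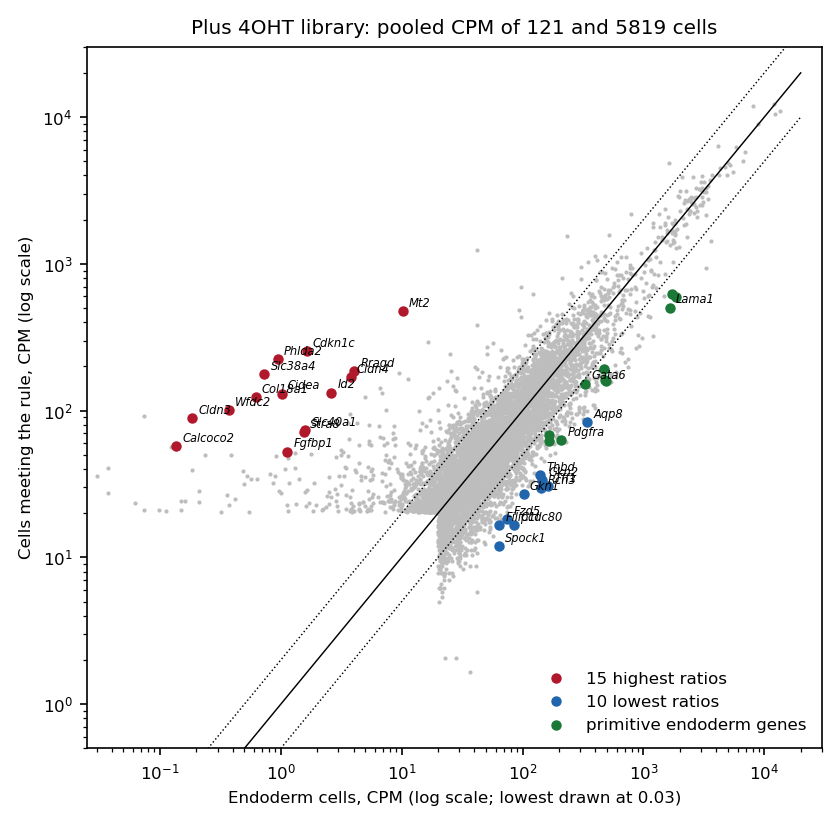
Pooled CPM of each of the genes of at least 20 CPM in either group in the 5819 endoderm cells (horizontal) and the 121 TE-gene cells (vertical) of the +4OHT library, both on log scales, without the rule genes; dotted lines mark 2-fold. The 15 highest ratios among genes of at least 50 CPM found in at least 20% of cells (red), led by Cldn3 at 88.5 against 0.186 CPM, lie far above the diagonal, and the primitive endoderm genes (green) lie below it.

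The label was then checked against lists of marker genes. Among the given markers that the rule did not use, Cldn4 and Cdkn1c had the values above. The list of TE transcription factors had 12 genes outside the rule, of which 5 reached 20 CPM, and 2 of these were at least 2-fold higher and none lower. Tfap2c, an AP-2 factor of TE and trophoblast stem cells, was at 49.6 against 0.236 CPM, a ratio of 211 (129 to 362), with UMIs in 44 cells, and Id2 was the other. Tead4 (24.4 against 38.1 CPM), Ets2 (21.1 against 29.3 CPM) and Msx2 (43.9 against 23.7 CPM) differed by less than 2-fold. The regulators of trophoblast stem cells and of differentiated trophoblast were near the floor. Eomes had 3.72 CPM, Elf5 a single UMI, and Hand1 9 UMIs in 7 cells, whereas Gata2 reached 14.5 CPM in 13 cells.

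Of the 17 simple epithelium genes outside the rule, 16 reached 20 CPM, 4 were at least 2-fold higher, and none was lower, with a median log2 ratio of 0.39. They included Cldn3, Cldn4 and Dsg2. Dsg2, a desmosomal cadherin, was at 54.6 against 26.5 CPM, a ratio of 2.06 (1.71 to 2.46). The keratins that pair in simple epithelia were as abundant in endoderm cells, with Krt8 at 631 against 557 CPM and Krt18 at 735 against 568 CPM, so that keratins other than Krt7 did not set the TE-gene cells apart. Among 8 genes of blastocoel transport, 7 reached 20 CPM, 2 were higher and 1, Aqp8, was lower. The glucose transporter gene Slc2a3 was at 1248 against 42.0 CPM, a ratio of 29.7 (28.3 to 31.2), with UMIs in 108 cells, and the water channel gene Aqp3 at 25.7 against 2.62 CPM, a ratio of 9.81 (7.26 to 13.1), with UMIs in 15 cells.

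Genes of the extraembryonic ectoderm, the stem cell compartment that the polar TE forms, were partly present. Of 12 genes, 8 reached 20 CPM and 5 were at least 2-fold higher, none lower, with a median log2 ratio of 2.26. Bmp4, a ligand that this tissue sends to the epiblast, was at 32.3 against 1.18 CPM (27.4, 20.04 to 37.4), and Fgfr2, the FGF receptor of TE, at 26.1 against 2.42 CPM (10.8, 7.98 to 14.4). Sct, which encodes secretin, was at 32.3 against 1.90 CPM (17.0, 12.8 to 22.5), and 9.92 without the single cell that held 42.3% of its UMIs. Rhox9, an X-linked homeobox gene, was at 40.1 against 5.69 CPM (7.05, 5.61 to 8.80), with 32.0% of its UMIs in a single cell. Of 12 genes of differentiated trophoblast, 9, among them the placental lactogen genes and the syncytins, had no UMI in the TE-gene cells. Only the VEGF receptor gene Flt1 reached 20 CPM, and it was lower, at 330 against 903 CPM.

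Imprinted genes with roles in the placenta were higher as a group by count. Of 14 genes, 12 reached 20 CPM and 7 were at least 2-fold higher, none lower, with a median log2 ratio of 1.72 against 0.044 over all genes. Besides Cdkn1c, Phlda2 and Slc38a4 these were Mest, H19, Igf2 and Peg10. Mest, a paternally expressed growth gene, was at 78.2 against 6.47 CPM (12.1, 10.2 to 14.3). H19 was at 1544 against 235 CPM (6.56, 6.33 to 6.80), with UMIs in 93 cells, and Igf2, a growth factor gene beside it, at 42.6 against 11.9 CPM (3.58, 2.89 to 4.39). Peg10, a retrotransposon-derived gene needed for the placenta, was at 1567 against 517 CPM (3.03, 2.93 to 3.13), with UMIs in 113 cells. Peg3 (855 against 1515 CPM) and Sgce (77.8 against 123 CPM) differed by less than 2-fold.

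Several of these genes lie near Ascl2, itself imprinted, on chromosome 7. This stretch was chosen for description after its values were seen. Ascl2 lies at 142966829 to 142969264 (mm10, minus strand), H19 at 142575529 to 142578143, Cdkn1c at 143458339 to 143461050 and Phlda2 at 143501545 to 143503150. Midpoints of H19, Cdkn1c and Phlda2 lie 391, 492 and 534 kb from that of Ascl2. Igf2, beside H19, had the ratio of 3.58 (2.89 to 4.39) given above. Other neighbours of at least 20 CPM lay closer to 1. Kcnq1ot1, the non-coding RNA that is read from the paternal copy of this domain, was at 527 against 507 CPM, a ratio of 1.04 (0.983 to 1.10). Cd81, Tssc4, Nap1l4 and Cars had ratios of 1.14, 1.31, 1.21 and 1.11, and Mrpl23, beyond H19, 0.709. Slc22a18, between Cdkn1c and Phlda2, had 13 UMIs in the TE-gene cells and 12 in the far more numerous endoderm cells. It was below the limit of 20 CPM, with an interval of the ratio from 15.2 to 86.7. The 93 +4OHT cells that were neither endoderm nor held a rule gene had no Ascl2 UMI. They held Phlda2 at 95.1, Cdkn1c at 57.3 and H19 at 48.5 CPM, against 0.942, 1.64 and 235 CPM in endoderm cells.

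**Figure D4:**
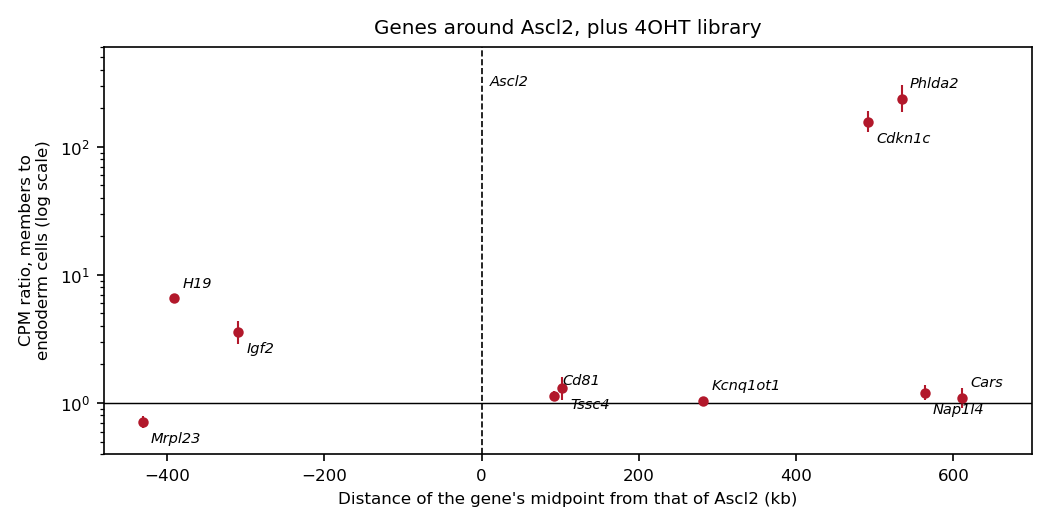
CPM ratio (log scale, bars give 95% counting intervals) of 121 TE-gene cells to 5819 endoderm cells of the +4OHT library for genes of at least 20 CPM in the TE-gene cells around Ascl2, by distance between midpoints in kb. Phlda2 and Cdkn1c stand at 237 and 156 and H19 at 6.56, whereas Kcnq1ot1 lies at 1.04.

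Genes of other cell types were followed in the same way. Of 14 pluripotency genes, 8 reached 20 CPM and 6 were at least 2-fold higher in the TE-gene cells, none lower. Sox2, a core factor of the epiblast that extraembryonic ectoderm also uses, was at 49.6 against 0.384 CPM (129, 86.4 to 198), with UMIs in 38 cells, and Nanog at 21.1 against 0.0992 CPM (213, 100 to 519), with UMIs in 18. Klf2, Utf1, Tfcp2l1 and Zfp42 were the others. Of 12 primitive endoderm genes outside the threshold, 10 reached 20 CPM and all 10 were at least 2-fold lower. Gata6, the transcription factor that specifies primitive endoderm, was at 153 against 330 CPM, and Pdgfra, on which the culture was sorted, at 63.3 against 209 CPM. The endoderm cells were chosen by genes that go with these, and this count is a description of that choice.

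Of 10 visceral endoderm genes, 4 reached 20 CPM, with Apoe higher (2.11, 1.80 to 2.45) and Ttr, Lrp2 and Rbp4 lower. Of 10 primitive streak and mesoderm genes only Snai1 reached 20 CPM, at 26.5 against 48.7, and none of the 10 caudal patterning, 9 surface ectoderm and amnion, or 7 fibroblast genes outside the rule did. The fibroblast genes summed to 7.86 CPM in the TE-gene cells and 19.14 CPM in endoderm cells. The collagen limit was applied to the TE-gene cells and not to the endoderm cells, so these sums do not compare like with like. Of 8 genes of the two-cell-like state 2 were higher, but 241 of the 243 UMIs of the list lay in 2 cells.

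Signalling and cycling genes differed from list to list. Of 9 BMP response genes, 7 reached 20 CPM and 5 were higher, with a median log2 ratio of 1.37. They were Id1 (2.58, 2.19 to 3.02), Id2, Id3 (5.24, 4.20 to 6.49), Smad7 (2.51, 2.27 to 2.76) and Bmp4. Id2 and Bmp4 were also counted in lists above. Hippo signalling, whose effector YAP drives Cdx2 through TEAD4 in the embryo, was mixed. Of 10 measured genes, Amot (37.2 against 11.4 CPM) and Vgll4 (65.0 against 27.8 CPM) were higher, and the YAP targets Ccn1 (110 against 241 CPM) and Ccn2 (104 against 394 CPM) were lower. Of 9 measured p53 targets 1, Trp53inp1 (2.09, 1.88 to 2.32), was higher. Over all genes 8.93% were higher and 7.96% lower, so 1 of 9 does not set the p53 targets apart. Of 12 S phase genes 3 were higher, Ung, Uhrf1 and Mcm5, and of 12 mitosis genes none was 2-fold apart, with a median log2 ratio of 0.28.

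The 73 endoderm-low cells carried most of these differences. Against endoderm cells, 1135 (15.5%) of 7326 genes were at least 2-fold higher in them and 1362 (18.6%) lower. Cldn3 was at 145 CPM (779, 459 to 1422), Cldn4 at 246 CPM (65.2, 55.3 to 76.7), Tfap2c at 75.8 CPM (322, 195 to 559) and Phlda2 at 388 CPM (412, 322 to 532, and 274 without the cell that held 34.1% of its UMIs). Genes of the endoderm were scarce in them. Lama1, a laminin chain, was at 43.3 against 1649 CPM, 38.1-fold lower (29.0 to 51.0), Pdgfra at 7.49 against 209 CPM, 27.9-fold lower (14.7 to 61.1), and Gata6 at 43.3 against 330 CPM, 7.63-fold lower (5.82 to 10.2). Flt1 was at 63.3 against 903 CPM. Epcam and Krt19, an epithelial adhesion molecule and a keratin that endoderm cells held in quantity, were 2.83-fold and 3.78-fold lower.

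The 48 endoderm-high cells held RNA of both kinds. Against endoderm cells, 296 (4.19%) of 7064 genes were at least 2-fold higher in them and 57 (0.807%) lower. All 10 measured primitive endoderm genes were within 2-fold, with a median log2 ratio of -0.64, for example Gata6 at 261 against 330 CPM and Lama1 at 958 against 1649 CPM. Beside them, Cldn4 was at 92.9 CPM (24.6, 19.6 to 30.6), Cldn3 at 32.9 CPM (177, 95.6 to 345), Id2 at 69.1 CPM (26.4, 20.3 to 34.2), and Cdkn1c at 224 CPM (137, 111 to 170, and 62.8 without the cell that held 55.5% of its UMIs). These cells were the deepest, with a median of 25154 UMIs against 14987 in endoderm-low and 12297 in endoderm cells. Of the 48, 15 (31.3%) had a Scrublet doublet score in the top 5% of the library, against none of the 73 endoderm-low cells and 306 (5.26%) of the endoderm cells. Scrublet called 0 of the 6525 cells of this library, where it has not worked, so its scores clear no group of doublets. The part of doublets of 2 cells in these values was not tested.

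Among the 48, 13 cells held Krt7 and no other rule gene. They differed from the other 35 in their epithelial genes, with Krt8 at 1247 against 426 CPM (2.93, 2.52 to 3.40), Krt18 at 1506 against 425 CPM (3.55, 3.08 to 4.09) and Epcam at 543 against 209 CPM (2.60, 2.07 to 3.24). The junction genes Dsp, Cldn7 and Perp were 4.07-fold, 3.75-fold and 6.27-fold higher. Some of the genes that led in the TE-gene cells were scarce in them. Phlda2, Cidea, Calcoco2 and Stra8 had no UMI, and Mt2, Col18a1, Rragd, Tfap2c and Cldn3 had 1 UMI each. Others were present, with Cldn4 at 67.9 CPM in 6 of the 13 cells, 18.0-fold over endoderm cells (10.3 to 29.2). The Cldn4 ratio to the other 35 was 0.683 (0.382 to 1.15). Without the cell of the 13 that held 47.1% of their 17 Cldn4 UMIs it was 0.385 (0.171 to 0.761), an interval that left out 1. Cdkn1c at 188 CPM and Slc38a4 at 87.9 CPM lay in 2 cells each. Gata6 was at 268 against 259 CPM in the others, and Lama1 at 995 against 949 CPM. Of these 13 cells, 1 had a top doublet score, against 14 of the other 35, with the same limit on the scores. The 13 cells thus met the rule through Krt7 alone and held more keratin and junction RNA than the other 35.

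The endoderm-low TE-gene cells were set beside the 93 +4OHT cells below the endoderm threshold that held no rule gene. This comparison shows which of the values above were also found in cells with little endoderm RNA and no rule gene. Of 6908 genes, 413 (5.98%) were at least 2-fold higher in the TE-gene cells and 355 (5.14%) lower, and the interval left out 1 for 403 and 352 of them. The median depth was 14987 and 10150 UMIs, and the median mitochondrial share 5.55% and 3.52%. The sets thus differ in more than the rule genes. Id2 led at 197 against 3.88 CPM (50.8, 19.6 to 188), followed by H19 at 1858 against 48.5 CPM (38.3, 28.9 to 51.7) and Id3 at 72.4 against 3.88 CPM (18.6, 7.03 to 70.0). Tfap2c was at 75.8 against 5.83 CPM (13.0, 5.75 to 36.4), and Dkk1, a secreted Wnt inhibitor, at 54.9 against 3.88 CPM (14.1, 5.27 to 53.5). Rtn1, Slc40a1, Igf2, Mbnl3, Rasl11a, Wfdc2, Mex3b, Rhox6, Slc2a1 and Nefl completed the 15 highest, at 6.17-fold to 11.7-fold. Wfdc2 at 7.43-fold fell to 2.26 (1.43 to 3.66) without the cell that held 70.1% of its UMIs, and Rhox6 at 6.60-fold to 4.25 (2.13 to 9.41). On the other side, the 4 Id3 UMIs of the 93 cells lay in 1 cell and the 4 Id2 UMIs in 3.

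By list, epithelial and placental genes stayed higher against these cells. Of 16 measured simple epithelium genes 7 were at least 2-fold higher and none lower, including Krt8 at 668 against 164 CPM (4.07, 3.44 to 4.83) and Krt18 at 824 against 191 CPM (4.31, 3.69 to 5.05), with a median log2 ratio of 0.60 against 0.041 over all genes. Of 8 measured extraembryonic ectoderm genes 6 were higher, of 11 imprinted genes 5, of 7 BMP response genes 5, of 7 blastocoel transport genes 3 with Aqp8 lower, and of 4 TE transcription factors 3 (Tfap2c, Msx2 and Id2). Peg10 was at 2165 against 454 CPM (4.77, 4.32 to 5.27), Phlda2 at 388 against 95.1 CPM (4.08, 3.27 to 5.12, and 2.72 without the TE-gene cell with the most) and Cdkn1c at 288 against 57.3 CPM (5.03, 3.81 to 6.75). Of 12 mitosis genes 3 were higher, and of 9 measured primitive endoderm genes 4 were lower.

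Other genes were shared with the cells that lacked a rule gene. Col18a1 was at 196 CPM in the TE-gene cells and 150 CPM in the others (1.31, 1.06 to 1.61), Cidea at 176 and 190 CPM (0.923, 0.756 to 1.13), Calcoco2 at 89.1 and 103 CPM (0.866, 0.655 to 1.14) and Sox2 at 74.9 and 107 CPM (0.702, 0.525 to 0.935). Slc38a4 was less than 2-fold apart, at 245 against 130 CPM (1.88, 1.53 to 2.33). These genes were far below this level in endoderm cells, so that their high ratios above were shared by cells without a rule gene. Cldn4 held an intermediate place, at 246 against 109 CPM (2.27, 1.82 to 2.84). Stra8 was higher in the cells without a rule gene, at 228 against 86.6 CPM. So were Gpx2, a glutathione peroxidase, at 69.9 against 2.50 CPM (28.0-fold, 9.20 to 139), the stress-induced transcription factor gene Atf3 (6.14-fold, 3.51 to 11.5) and the small heat shock protein gene Cryab (6.12-fold, 4.07 to 9.53). The others of the 10 lowest ratios were Hist1h2bc, Ankrd33b, Gch1, Retreg1, Lmo4, Cxcl16 and Tmem140, at 6.66-fold to 11.0-fold.

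The endoderm-low cells were not uniform. A UMI of Sox2 or Nanog was found in 36 of the 73, and the other 37 had none, at median depths of 15297 and 14376 UMIs. This split was made after the values were seen. Of the 5 rule genes, 4 were higher in the 37 cells without Sox2 or Nanog, with Ascl2 at 326 against 93.6 CPM (3.48, 2.59 to 4.75), Krt7 at 126 against 20.6 CPM (6.12, 3.36 to 12.04) and Esx1 at 380 against 168 CPM (2.26, 1.78 to 2.88). Cdx2 was closer, at 214 against 132 CPM (1.62, 1.22 to 2.17), and Gata3 was not apart, at 40.3 against 34.9 CPM (1.15, 0.615 to 2.17). Several genes outside the rule were higher in the same cells. Id2 was at 319 against 87.2 CPM (3.66, 2.69 to 5.04), H19 at 2875 against 937 CPM (3.07, 2.79 to 3.38), Tfap2c at 110 against 44.4 CPM (2.49, 1.57 to 4.03), Krt8 at 1011 against 357 CPM (2.83, 2.42 to 3.32) and Igf2 at 87.6 against 17.4 CPM (5.02, 2.58 to 10.7). Without the 1 cell of the 36 that held the most, the Krt8 and Igf2 ratios were 5.37 and 10.8. Without the 1 cell of the 37 that held the most, they were 2.49 (2.13 to 2.93) and 4.02 (2.02 to 8.73).

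The 36 cells with Sox2 or Nanog held more of another set. Col18a1 was at 289 against 94.6 CPM (3.05, 2.24 to 4.21), Bmp4 at 92.0 against 29.8 CPM (3.09, 1.77 to 5.66), Cidea at 222 against 124 CPM (1.78, 1.33 to 2.41) and Cdx1, a caudal paralogue of Cdx2, at 30.1 against 5.26 CPM (5.73, 1.69 to 30.2). Pou5f1 was alike, at 22.2 and 21.03 CPM (1.06, 0.453 to 2.50), as was Mt2, at 858 and 810 CPM (1.06, 0.934 to 1.20). The imprinted gene Mest, unlike H19 and Igf2, was higher in the 36 cells, at 155 against 50.8 CPM. Without the cell of the 36 that held 45.9% of its UMIs there it was 1.73-fold higher (1.08 to 2.82). The endoderm-low cells thus ran from cells with TE genes and pluripotency factors together to cells with TE genes, more Krt8, H19 and Igf2, and no Sox2 or Nanog UMI.

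The 34 cells without 4OHT had another profile. Cdx2 was their main rule gene, with 92 UMIs in 28 cells (110 CPM), followed by Esx1 with 31 UMIs in 12 cells, Ascl2 with 24 in 18 cells and Krt7 with 16 in 3 cells. Gata3 had no UMI in 839277, with an interval that reached 4.40 CPM. No cell held more than 3 rule genes. Sox2 had a UMI in 29 of the 34 cells, Cdx1 in 24 and Nanog in 22. Genes of the label and of pluripotency were thus mixed in them.

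Against the 1331 endoderm cells of their own library, 768 (11.3%) of 6801 genes were at least 2-fold higher and 1181 (17.4%) lower. Tfap2c was at 78.6 against 2.59 CPM (30.4, 21.05 to 44.1), Col18a1 at 214 against 9.67 CPM (22.2, 18.1 to 27.1), Id2 at 244 against 15.2 CPM (16.0, 13.4 to 19.11), Bmp4 at 91.7 against 6.64 CPM (13.8, 10.4 to 18.3), Cdx1 at 124 against 11.2 CPM (11.1, 8.73 to 14.0) and Sox2 at 337 against 30.5 CPM (11.0, 9.58 to 12.7). Tfap2c, Id2, Col18a1, Mt2 and Rragd were among the 15 highest ratios in this library and high with 4OHT also. The keratins were lower than in endoderm cells, with Krt8 at 139 against 291 CPM (2.08-fold, 1.74 to 2.52), and 9 of 16 measured simple epithelium genes were lower and 3 higher. Of 13 measured pluripotency genes 10 were higher, of 13 imprinted genes 10, and all 11 measured primitive endoderm genes were lower. Of 4 measured TE transcription factors 3 were higher, namely Tfap2c, Id2 and Eomes at 81.0 against 17.3 CPM (4.70, 3.57 to 6.09), and Tead4 was lower.

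Against the 3488 -4OHT cells that were neither endoderm nor held a rule gene, 246 (4.02%) of 6112 genes were at least 2-fold higher and 125 (2.05%) lower. These 3488 cells held Sox2 at 335 CPM and Cdx1 at 109 CPM, so that the 337 and 124 CPM of the -4OHT TE-gene cells were not above their surroundings (1.01, 0.891 to 1.13, and 1.14, 0.928 to 1.38). H19 was at 461 against 6.87 CPM (67.1, 58.5 to 77.0) with UMIs in 14 cells, Id2 at 244 against 12.7 CPM (19.2, 16.4 to 22.4), Krt18 at 170 against 10.3 CPM (16.5, 13.7 to 19.8), Krt8 at 139 against 9.40 CPM (14.8, 12.1 to 18.1) and Tfap2c at 78.6 against 25.5 CPM (3.08, 2.37 to 3.94). Of 15 measured simple epithelium genes 9 were higher and 1 lower. The thyrotropin-releasing hormone gene Trh was 5.47-fold lower (3.83 to 8.11).

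The 34 cells were not uniform either. Of the 34 cells, 30 had a UMI of Sox2 or Nanog and 4 had none, a split made after the values were seen. In the 4, Krt8 was at 847 against 83.6 CPM (10.1, 6.90 to 14.8), Krt18 at 1010 against 104 CPM (9.69, 6.85 to 13.7), Epcam at 586 against 78.4 CPM (7.47, 4.81 to 11.5) and Esx1 at 261 against 19.3 CPM (13.5, 6.26 to 29.3). A single cell of the 4 held 38 of their 52 Krt8, 38 of their 62 Krt18 and 13 of their 16 Esx1 UMIs. Without it the ratios were 5.53 (2.87 to 9.96) for Krt8, 7.61 (4.61 to 12.1) for Krt18 and 5.13 (0.953 to 18.2) for Esx1, so that the Esx1 interval took in 1. The 30 cells also held keratin RNA, with 65 UMIs of Krt8 and 81 of Krt18.

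**Figure D5:**
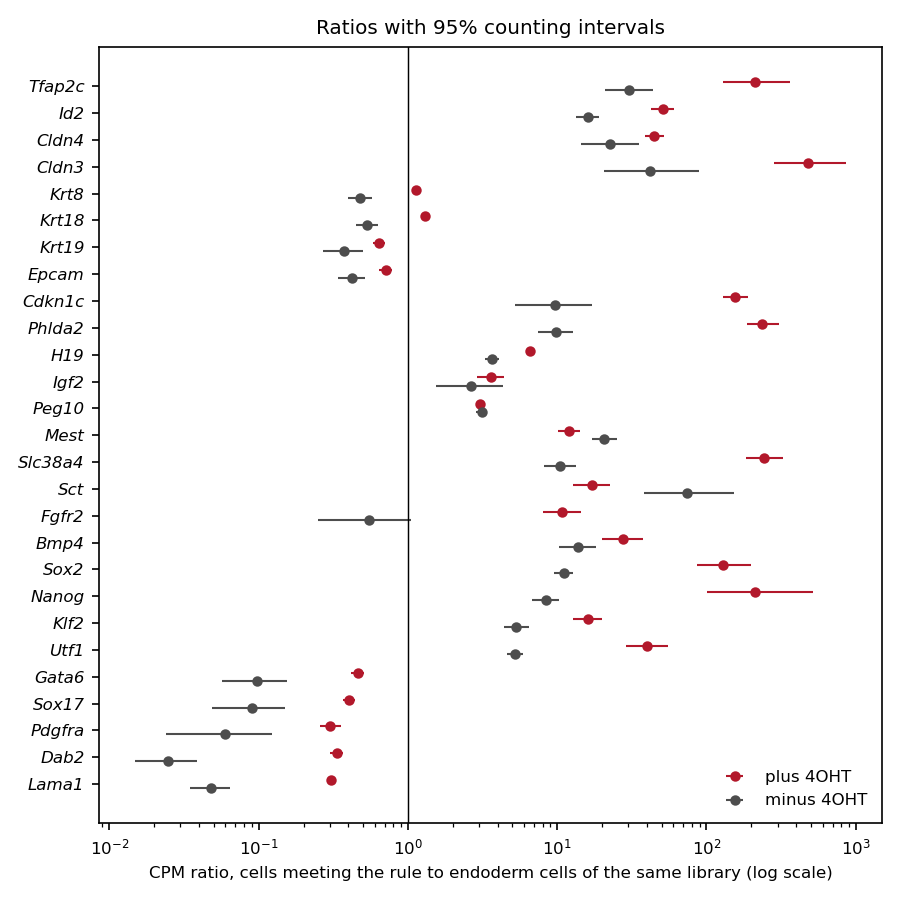
CPM ratio (log scale) of TE-gene cells to endoderm cells of the same library for 27 genes, with 4OHT (red, 121 against 5819 cells) and without it (grey, 34 against 1331 cells); bars are 95% counting intervals. Cdkn1c stands at 156 with 4OHT and at 9.67 without it, whereas Krt8 lies at 1.13 and 0.480.

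Set side by side, the cells of the 2 libraries differed broadly. Of 7091 genes, 1450 (20.4%) were at least 2-fold higher in the +4OHT TE-gene cells and 440 (6.21%) lower, and the interval left out 1 for 1441 and 440 of them. The median log2 ratio over all these genes was 0.207, and the differences below are far larger than this shift. Cdkn1c was at 256 against 20.3 CPM (12.6, 7.82 to 21.8), Cldn4 at 169 against 46.5 CPM (3.64, 2.62 to 5.20, and 8.37 without the -4OHT cell that held 59.0% of the 39 UMIs), Krt8 at 631 against 139 CPM (4.53, 3.75 to 5.51) and H19 at 1544 against 461 CPM (3.35, 3.02 to 3.73). Of 16 measured simple epithelium genes 10 were higher with 4OHT and none lower. Sox2 was at 49.6 against 337 CPM (6.79-fold lower, 5.47 to 8.48), Nanog at 21.1 against 150 CPM (7.12-fold lower, 5.10 to 10.1), and 11 of 13 measured pluripotency genes were lower with 4OHT and none higher. Id2 (133 against 244 CPM) and Tfap2c (49.6 against 78.6 CPM) were less than 2-fold apart.

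The 5 highest and 5 lowest ratios between the libraries were in part genes of other cell types. S100g, a calcium-binding protein gene, was at 938 against 42.9 CPM (21.9, 15.8 to 31.3, and 51.1 without the -4OHT cell that held 58.3% of its 36 UMIs there), and Pga5, Creb3l2, App and Crim1 were 15.7-fold to 21.2-fold higher with 4OHT, on 5 and 11 -4OHT UMIs for Creb3l2 and Crim1. All 10 measured primitive endoderm genes and 8 of 9 Hippo pathway genes were higher with 4OHT, and 48 of the 121 cells, but 1 of the 34, were endoderm-high. Lefty1, an inhibitor of Nodal signalling, was at 1.65 against 119 CPM (72-fold lower, 27.3 to 269, and 45.9-fold without the cell that held 38.0% of its -4OHT UMIs), and Tdgf1, the Nodal co-receptor, at 12.4 against 259 CPM (20.8-fold lower, 14.2 to 31.6). Upp1, Sept1 and Tcf15 were 19.5-fold to 23.1-fold lower. With 1 library each, the effect of 4OHT and any other difference between the libraries cannot be told apart.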

How the data were processed

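For the 2 single-cell libraries of Oct4-LOF nEnd, the deposited values are UMI counts of each gene in each barcode, not normalized, which the authors made with Cell Ranger 6.1.2 per the file headers on mm10. Doublet removal before deposit is not given in the sources used here. A table of bulk counts of another line (OCT4-mCherry) was not used here. Counts were read in Python 3.11.15 with scipy 1.17.1 and pandas 2.3.3. UMIs were summed over the cells of a set, divided by the summed total and given as CPM. Genes of at least 20 CPM in either set were compared, and 2-fold was the limit for a count of genes. Ratios have exact conditional binomial intervals and shares Clopper-Pearson intervals at 95%, which cover counting error only, and a count of 0 was set at a floor of 3 UMIs. Cells were thinned to 2700 UMIs (seed 1) where shares were compared across depths. The ratios recovered the folds put into simulated counts. Doublets were scored with Scrublet in scanpy 1.11.5 and kept. It called 0 of 6525 cells with 4OHT, where it has therefore not worked, and 186 of 5486 (3.39%) without it, 2 of them among the 34 cells. The libraries share 21 barcodes, 1 of them in a TE-gene cell. Positions come from GENCODE M21, which matched 32158 of 32285 gene identifiers. Genes named are the rule genes and given markers, the 15 highest and 10 lowest ratios among genes of at least 50 CPM and with a UMI in 20% of cells, extreme members of each list, and the 5 highest and lowest ratios between libraries at 100 CPM. Genes of chromosome 7 around Ascl2, the split by Sox2 and Nanog, the cells with Krt7 alone and the genes named within them were chosen after their values were seen. The members and the lists were chosen with earlier results of these data known. The values of 1 gene of the lists are not reported here.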

Additional observations from a re-analysis of the deposited data

Results flagged for a closer look

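Dsg2 and Amot stood on opposite sides of 1 in the 2 libraries when TE-gene cells were compared with endoderm cells of their own library. For Dsg2, a desmosomal cadherin gene, the ratio was 2.06 (1.71 to 2.46) with 4OHT, at 54.6 against 26.5 CPM, and 0.347 (0.194 to 0.575) without it, at 17.9 against 51.5 CPM. For Amot, which encodes the Hippo pathway adaptor angiomotin, it was 3.27 (2.60 to 4.07) with 4OHT, at 37.2 against 11.4 CPM, and 0.136 (0.0621 to 0.259) without it, at 10.7 against 78.9 CPM. The difference between the libraries was not tested, since each condition has 1 library. Both endoderm sets and both sets of TE-gene cells differ in these levels.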

How the results depend on the processing

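No paired analysis was possible because the single-cell libraries carry no replicate numbers and each condition has 1 library. The share of cells meeting the rule was 1.85% with 4OHT and 0.620% without it. It was 1.29% and 0.201% at a sum of 5 or more, 1.44% and 0.401% with at least 2 rule genes, and 0.475% and 0.0182% after thinning. The 642 genes higher and 572 lower against endoderm cells became 1045 and 945 with the rule on thinned cells, 1135 and 1362 without the endoderm-high cells, and 357 and 351 at 50 CPM. With no filter beyond 3 UMIs they became 5790 and 1366. The floor of 3 UMIs was then 1.24 CPM in the TE-gene cells and 0.0372 CPM in endoderm cells. Genes without a UMI in the TE-gene cells could thus be counted as higher, so the 5790 cannot be read as genes higher in them. Leaving out the top 5% of doublet scores, an alternative chosen after seeing the data, gave 755 and 731 genes, of which 631 and 566 were among the 642 and 572. The ratios without a single cell were also added after seeing the data. Leaving out cells called by Scrublet was not run with 4OHT, where it called 0 cells. For the 30 named genes, 359 ratios were recomputed. All 359 kept their direction, and 82 moved beyond the counting interval. The 30 were the 5 rule genes and the 15 highest and 10 lowest ratios of the same comparison. The rule set the direction of the first, and the others were picked for their ratios. The kept direction is therefore a description and no test. Genes below 20 CPM, among them Eomes, Elf5, Hand1 and Gata2, were too shallow in the +4OHT TE-gene cells for a ratio, and the 34 cells without 4OHT held 839277 UMIs in all.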
